A study of Mus musculus and Homo sapiens with 30 samples.

Results

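Keratin filaments, desmosomes and the luminal surface of mammary epithelial cells were followed through 10 genes, chosen as a named list: the keratins Krt7, Krt8, Krt18 and Krt19, the desmosome genes Dsp, Jup and Pkp2, and the cell surface genes Podxl, Muc1 and Cldn4. The 10 genes were 10 of the 56980 rows of the mouse count table, and each had a row. They were chosen by function with measured values in view: several lay near the floor of detection in E0771 cells, and their levels in the lines and media were known. Levels that differ between the cell lines are therefore given as a description with no test, and the effects of the media were tested in fits over all genes.

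The results cover 2 cell lines of the mouse mammary gland. E0771 cells come from a mammary tumour and NMuMG cells from normal mammary gland epithelium, although the labels list both under breast cancer. After 36 h of growth, the cells received 1 of 3 media for 16 h. The control was standard growth medium, and the other 2 held that medium with 50% secretome, the material released by inguinal adipocytes, labelled lean in one group and obese in the other. All cells were in DMEM with serum, the NMuMG protocol also lists glucose and insulin in all 3 groups, and the control medium held no secretome. Each line and medium had 3 libraries of poly(A) RNA, which makes 18 of the 30 libraries of the series. The labels do not say that replicates came from separate cultures, so p-values measure the spread between these libraries, which may be technical.

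Total counts lay between 22929035 and 31094119 per library. A floor of 3 counts corresponded to 0.0965 to 0.131 CPM, where CPM is the count of a gene per 1000000 counts of its library. The luminal marker list fixed for the cell type check held 12 genes. It summed to 569 to 602 CPM in control, 549 to 568 CPM in lean and 503 to 533 CPM in obese NMuMG libraries. It was led by Cdh1, which alone held 464 to 558 CPM. In NMuMG 6 of the 12 genes never exceeded 3 counts, with Elf5, Pgr, Csn2 and Wfdc18 at 0. In E0771 the same list summed to 2.37 to 2.79 CPM in control, 2.86 to 3.63 CPM in lean and 2.47 to 2.84 CPM in obese libraries. There 8 of its 12 genes never exceeded 3 counts, and Prlr, Pgr, Csn2 and Wfdc18 were at 0. Foxa1, the highest of the list there, had 22 to 52 counts per E0771 library. The fibroblast list (8 genes, led by Col1a1) summed to 974 to 1075 CPM in E0771 control libraries, 419 to 444 CPM in lean and 733 to 979 CPM in obese, against 5.78 to 6.43, 3.34 to 3.56 and 3.89 to 4.87 CPM in the same groups of NMuMG. The adipocyte list (8 genes) summed to 0.751 to 1.61 CPM over the E0771 libraries, led by Fabp4, with Lep and Adrb3 at 0. In NMuMG, led by Cidec, it summed to 0.393 to 0.775 CPM in control, 2.07 to 2.26 CPM in lean and 0.372 to 1.08 CPM in obese libraries, with Plin1, Cfd and Lep at 0. The luminal, fibroblast and adipocyte sums therefore differed between media in NMuMG, and their part in the results for that line was not tested.

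Keratins are the intermediate filament proteins of epithelia. A type I and a type II keratin pair to form the filament, and in simple and luminal epithelium the type II keratins Krt8 and Krt7 pair mainly with the type I keratins Krt18 and Krt19. Desmosomes tie these filaments to the plasma membrane: desmosomal cadherins bridge neighbouring cells, the armadillo proteins Jup (plakoglobin) and Pkp2 (plakophilin) bind their tails, and Dsp (desmoplakin) links that plaque to keratin. Podxl (podocalyxin) and Muc1 are heavily glycosylated proteins of the luminal membrane, and Cldn4 is a claudin of the tight junction.

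NMuMG cells carried all 10 genes, and E0771 cells carried 3 of them above trace level. In control medium, mean levels per kilobase of transcript in NMuMG ran from Krt8 at 1760.1 ± 49.7 CPM per kb and Krt18 at 1756.1 ± 51.4 CPM per kb (SD, n = 3), whose libraries overlapped, through Krt19 at 484 ± 24.1, Jup at 89.6 ± 5.96, Dsp at 80.7 ± 3.05, Muc1 at 41.7 ± 1.75, Krt7 at 26.3 ± 0.434, Pkp2 at 19.2 ± 0.567 and Podxl at 14.9 ± 0.290 to Cldn4 at 0.506 ± 0.152. Neighbours in that order after the first pair did not overlap in their libraries. With merged exon length in place of transcript length, an alternative chosen after seeing the data, Jup and Dsp exchanged places, as did Pkp2 and Podxl. In E0771 the order was Krt8 at 129.5 ± 2.41 CPM per kb, Jup at 35.8 ± 0.811 and Pkp2 at 1.80 ± 0.219. The other 7 genes had means of at most 0.0501 CPM per kb, and neighbours among those detected overlapped, from Muc1 through Podxl and Krt7 to Dsp.

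**Figure D1:**
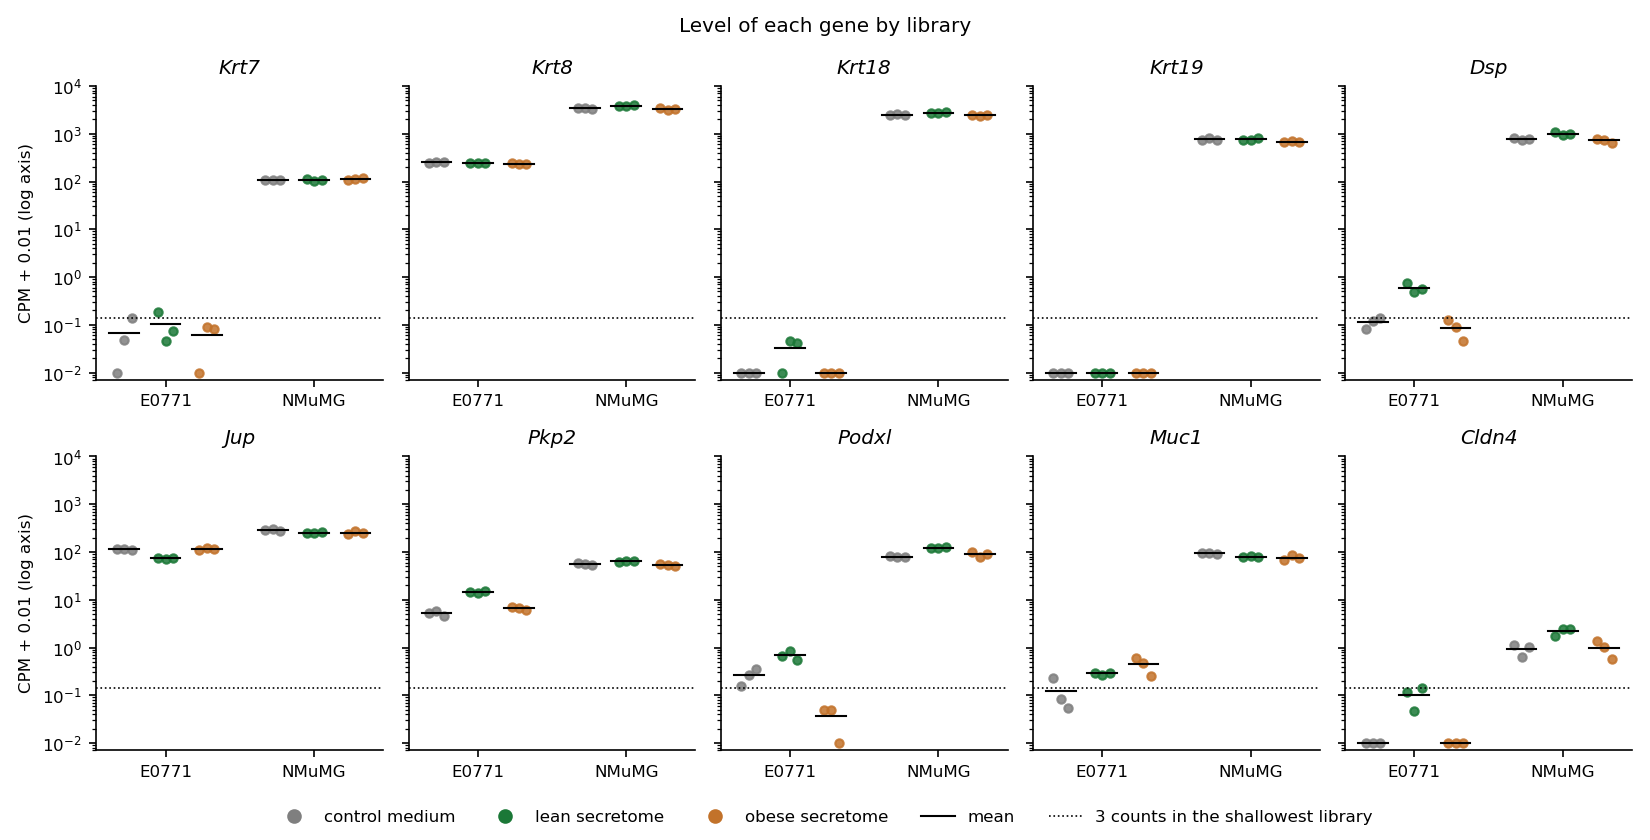
Level in CPM of the 10 genes in each of the 18 libraries (log axis, 0.01 added so that a count of 0 can be drawn), by cell line and medium. Points are libraries, black lines are means of 3 libraries, and the dotted line is the level of 3 counts in the shallowest library. Krt18, Krt19, Krt7, Muc1, Dsp, Podxl and Cldn4 lie near or under that line in most E0771 libraries, while Krt8 and Jup stand far above it in both lines.

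The keratin pair Krt8 and Krt18 was split in E0771 and balanced in NMuMG. In NMuMG, Krt8 stood at 3442, 3546 and 3352 CPM in control replicates 1 to 3, and Krt18 at 2475, 2608 and 2487 CPM. In E0771 control libraries Krt8 stood at 248.6, 254 and 258 CPM, from 5917 to 6813 counts, while Krt18 had 0 counts in all 3. Krt18 reached 1 count in lean replicates 2 and 3 and had 0 counts in the other E0771 libraries, although NMuMG libraries of the same table held 56537 to 80623 counts of it. The level of Krt8 was 13.6 times higher in NMuMG control than in E0771 control (95% exact counting interval 13.4 to 13.8), and Krt18 was at least 19287-fold higher, taking 3 counts in the shallowest E0771 control library as the floor. These floors, and the counting intervals here and below, pool the reads of a group and cover counting error only. Replicate libraries of a group spread more than counting error (chi-square per degree of freedom over genes 2.27 to 8.37). The intervals are therefore no test of a difference between lines or media. In bulk RNA, fewer cells with a transcript and less of it per cell cannot be told apart.

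Both genes lie on chromosome 15 in the mouse and are neighbours with 23.7 kb between them (GRCm38, GENCODE M21). Krt8 is on the minus strand and Krt18 on the plus strand, with 1 annotated gene between them that is not protein-coding. Their promoter windows, 250 bases before to 50 after the RefSeq start in GRCm38.p6, are shown because the pair moved together in one line and was split in the other. Capitals mark matches, on either strand, to 6 motifs that were searched: CACCTG, the E-box read by ZEB and SNAI repressors; TGANTCA, the AP-1 site; AACCNGTT, the Grainyhead-like site; TATAAA, the TATA box; GGGCGG, the GC box; and TGACNNNGC, the core of the antioxidant response element. The Krt8 window is chr15:102004293-102004592 on the minus strand and the Krt18 window is chr15:102027966-102028265 on the plus strand.
Krt8 promoter: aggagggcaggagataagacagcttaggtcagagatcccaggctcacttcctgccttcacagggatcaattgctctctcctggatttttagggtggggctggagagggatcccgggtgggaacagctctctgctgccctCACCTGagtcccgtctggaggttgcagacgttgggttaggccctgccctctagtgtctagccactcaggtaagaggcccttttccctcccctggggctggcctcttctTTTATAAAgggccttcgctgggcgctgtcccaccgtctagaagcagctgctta
Krt18 promoter: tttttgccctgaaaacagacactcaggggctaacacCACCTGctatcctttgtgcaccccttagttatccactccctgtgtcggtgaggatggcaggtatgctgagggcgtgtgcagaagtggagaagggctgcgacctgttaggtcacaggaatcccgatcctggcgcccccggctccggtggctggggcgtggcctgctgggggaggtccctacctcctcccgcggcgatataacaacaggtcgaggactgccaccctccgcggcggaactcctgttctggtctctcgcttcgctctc
Each window held 1 match to CACCTG, at position -111 for Krt8 and -214 for Krt18 counted from the annotated start. Krt8 also held TATAAA at -1 and, overlapping it, its reverse complement TTTATA at -3. Of all 32851 promoter windows of the same length, 20.2% held CACCTG and 13.6% held TATAAA. A match is a description of letters and not a binding site.

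Krt19 and Krt7 followed the same split between lines. Krt19, the type I keratin that lacks a tail domain, had 0 counts in all 9 E0771 libraries and 16079 to 22123 counts in NMuMG, at least 5832-fold higher in control medium. Krt7, a type II keratin of ducts and glands, had 0 to 5 counts in E0771 libraries and 2585 to 3275 counts in NMuMG. The ratio of Krt7 levels in control was 2075, with a wide counting interval of 810 to 7617 because the E0771 side rested on 4 counts. No E0771 medium brought Krt7, Krt18 or Krt19 above 5 counts.

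Summed over 27 type I and 26 type II keratin genes, E0771 held type II keratin transcripts with few type I transcripts beside them. The type II sum was 5988 to 6900 counts in control libraries, of which Krt8 made up 98.7% to 98.9%. The type I sum was 19 to 41 counts in control, 155 to 228 in lean and 48 to 63 in obese libraries, so that the 3 groups did not overlap. Per kilobase, the type II sum exceeded the type I sum 136 to 254 times in control, 24.6 to 37.1 times in lean and 83.9 to 99.1 times in obese libraries. In NMuMG that ratio lay between 0.758 and 0.782 in all 9 libraries. Krt18 and Krt19 together made up 92.3% to 94.0% of the NMuMG type I counts.

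Krt18 and Krt19 together made up at most 0.472% of the type I counts in any E0771 library. Krt16 and Krt14, named here after their values were seen, are type I keratins of stratified and basal epithelium. Krt16 had 16 to 31 counts in control, 118 to 170 in lean and 39 to 45 in obese libraries of E0771, and its log2 fold change was 2.33 ± 0.21 (SE) for lean minus control (edgeR quasi-likelihood test, adjusted p = 1.63e-09). Krt14 had 3 to 5, 18 to 52 and 2 to 8 counts in the same groups and reached the count filter only through the lean libraries, so it is given with no test. Its summed level was 8.99 times higher in lean than in control, with a 95% exact counting interval of 4.83 to 18.5. That interval leaves out the spread between libraries and is no test. Obese minus control gave 0.74 for Krt16 (edgeR, adjusted p = 0.114). The basal marker list, 8 genes that include Krt14 and are led by Acta2, summed to 18.3 to 20.9 CPM in control, 29.2 to 36.5 CPM in lean and 17.9 to 18.4 CPM in obese E0771 libraries, and its part in these values was not tested.

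Within NMuMG, Krt8 and Krt18 kept a ratio near 1. Per kilobase, Krt8 over Krt18 was 1.002 ± 0.016 in control, 1.009 ± 0.017 in lean and 1.003 ± 0.008 in obese libraries (SD, n = 3 each), with a range of 0.989 to 1.03 over the 9 libraries. The group means differed by less than the SD within control or lean. The Krt8 pseudogene Krt8-ps took counts equal to 1.17% to 1.36% of those of Krt8 in NMuMG and 0.241% to 0.440% in E0771. Reads that fit both the gene and this copy cannot be told apart here. Their number was not measured, so the size of the uncertainty this leaves in Krt8 counts is not known.

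**Figure D2:**
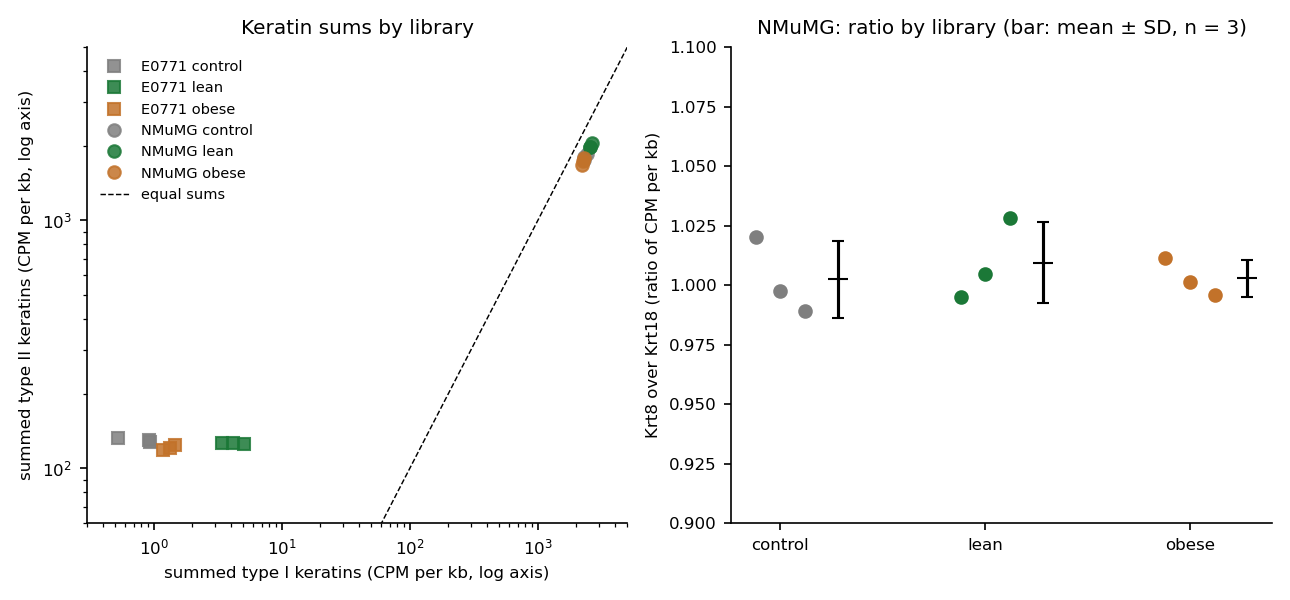
Left, the summed level of 26 type II keratin genes against that of 27 type I keratin genes in each of the 18 libraries (CPM per kb, log axes, dashed line at equal sums). E0771 libraries lie far above the line and move right with lean secretome, while the 9 NMuMG libraries lie just below it. Right, the ratio of Krt8 to Krt18 per kb in each NMuMG library with the mean and SD of 3 libraries, all between 0.989 and 1.03.

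Lean secretome raised both keratins of the pair in NMuMG by a small and even amount. Krt8 stood at 3761, 3779.7 and 3926 CPM in lean libraries and 3402, 3187 and 3304 CPM in obese libraries, so lean libraries lay above all control and obese libraries. Krt18 stood at 2774, 2761 and 2802 CPM in lean and 2469, 2335 and 2434 CPM in obese libraries, again without overlap of lean with either other group. The log2 fold changes for lean minus control were 0.15 ± 0.03 for Krt8 (edgeR, adjusted p = 9.18e-05) and 0.14 ± 0.03 for Krt18 (edgeR, adjusted p = 0.000199). For lean minus obese they were 0.20 ± 0.03 (edgeR, adjusted p = 1.80e-06) and 0.19 ± 0.03 (edgeR, adjusted p = 3.41e-06). Obese minus control gave -0.05 ± 0.03 for each, which did not pass (edgeR, adjusted p = 0.454 and 0.437).

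Krt8 in E0771 did not follow. Its levels were 245, 242 and 246 CPM in lean and 241, 229 and 235 CPM in obese libraries. All control libraries lay above the lean libraries, and all lean libraries above the obese libraries. Non-overlap was seen for 61.4% of all genes tested there for lean minus control and 21.5% for obese minus control. The log2 fold change for lean minus control was -0.06 ± 0.04 (edgeR, adjusted p = 0.147) and for lean minus obese 0.05 ± 0.04 (edgeR, adjusted p = 0.241). Obese minus control gave -0.12 ± 0.04 (edgeR, adjusted p = 0.100), and it passed when lean replicate 3 was left out of the shared estimate of spread (edgeR, adjusted p = 0.0449). The effect of lean secretome against control on Krt8 was larger in NMuMG by 0.19 ± 0.05 on the log2 scale (edgeR interaction, adjusted p = 0.000964).

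Krt19 moved apart from the pair in NMuMG. Its levels were 745, 807 and 737 CPM in control, 750, 745 and 816 CPM in lean, and 671, 702 and 677 CPM in obese libraries. Lean and control libraries overlapped, and every obese library lay below both. Lean minus control was 0.02 ± 0.04 (edgeR, adjusted p = 0.757), lean minus obese 0.16 ± 0.04 (edgeR, adjusted p = 0.000659) and obese minus control -0.14 ± 0.04 (edgeR, adjusted p = 0.0136). The last call did not hold without control replicate 2 (edgeR, adjusted p = 0.144), obese replicate 1 (0.0552) or obese replicate 3 (0.0659). Krt7 had 107 ± 1.78, 108 ± 4.35 and 113 ± 5.45 CPM in control, lean and obese NMuMG libraries (SD, n = 3) and passed no test. Its lean minus obese change of -0.09 ± 0.04 (edgeR, adjusted p = 0.0908) passed without lean replicate 1 (0.0307) or obese replicate 1 (0.0350).

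The desmosome genes divided in E0771: Pkp2 rose with lean secretome, Dsp was higher at trace level, and Jup fell. Pkp2 stood at 5.33, 5.85 and 4.58 CPM in control, 14.8, 14.0 and 15.6 CPM in lean, and 7.06, 6.72 and 5.96 CPM in obese libraries. Lean libraries lay far above both other groups, and obese libraries lay just above control. Pkp2 rose by a log2 fold change of 1.48 ± 0.11 for lean minus control (edgeR, adjusted p = 3.33e-11) and 1.17 ± 0.10 for lean minus obese (edgeR, adjusted p = 1.40e-09). Obese minus control was 0.31 ± 0.12 and did not pass (edgeR, adjusted p = 0.179). The summed level of the fibroblast list was lower in the same lean libraries, at the values given above, and its part in the E0771 results was not tested.

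Jup, which serves both desmosomes and adherens junctions, stood at 118, 114 and 112 CPM in E0771 control, 73.2, 72.0 and 76.1 CPM in lean, and 109, 119 and 117 CPM in obese libraries. The lean libraries lay well below all others, and obese and control overlapped. Jup fell by 0.65 on the log2 scale for lean minus control (SE 0.05, edgeR, adjusted p = 2.40e-11) and by 0.64 for lean minus obese (SE 0.05, edgeR, adjusted p = 4.31e-11). Its obese minus control value was close to 0 and its sign changed with the scaling, so no direction is given.

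Dsp was at trace level in E0771 and was higher there with lean secretome. It had 2, 3 and 3 counts in control, 21, 13 and 17 counts in lean, and 3, 2 and 1 counts in obese libraries. Only the lean libraries lay above the floor. Dsp reached the count filter in E0771 only through these lean libraries, so its call under that filter is no support. The fit with no low count filter kept every gene with a count in any E0771 library. There the log2 fold change was 2.44 ± 0.61 for lean minus control (edgeR, adjusted p = 0.000322) and 2.87 ± 0.64 for lean minus obese (edgeR, adjusted p = 4.94e-05). Dsp was listed with its values in view, so these values are no independent support. The summed counts gave a ratio of 5.68 for lean over control, with a 95% exact counting interval of 2.68 to 13.9. At its highest, in lean replicate 1, Dsp reached 0.751 CPM in E0771, against 642 CPM in the lowest NMuMG library.

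In NMuMG the same 3 genes moved in the same directions with lean secretome, by less. Dsp stood at 806, 748 and 767 CPM in control, 1073, 952 and 984 CPM in lean, and 789, 749.8 and 642 CPM in obese libraries. Pkp2 stood at 57.6, 56.0 and 54.3 CPM in control, 62.3, 64.8 and 64.1 CPM in lean, and 55.0, 53.5 and 51.7 CPM in obese libraries. For both genes the lean libraries lay above all others, while control and obese libraries overlapped. Dsp rose by 0.38 ± 0.09 on the log2 scale for lean minus control (edgeR, adjusted p = 0.0142) and by 0.45 ± 0.09 for lean minus obese (edgeR, adjusted p = 0.00719). Pkp2 rose by 0.19 ± 0.05 (edgeR, adjusted p = 0.000919) and 0.24 ± 0.05 (edgeR, adjusted p = 6.13e-05).

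Jup in NMuMG fell with both secretomes. It stood at 284, 308 and 270.1 CPM in control, 248, 250.1 and 256 CPM in lean, and 239, 269.9 and 246 CPM in obese libraries. All lean and obese libraries lay below the control libraries, obese replicate 2 only just. Jup changed by -0.19 ± 0.04 for lean minus control (edgeR, adjusted p = 0.00108) and -0.17 ± 0.04 for obese minus control (edgeR, adjusted p = 0.0174). The second call did not hold without control replicate 1 (edgeR, adjusted p = 0.0515), control replicate 2 (0.117), obese replicate 1 (0.0811) or obese replicate 3 (0.0974). Lean minus obese did not pass and changed sign without obese replicate 2 (0.03, edgeR, adjusted p = 0.605).

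The promoter windows of Dsp and Jup are shown because these 2 partners of the desmosomal plaque differed in direction for lean minus control. In E0771 the Dsp side was at trace level and reached the count filter only through the lean libraries. In NMuMG Jup was lower with both secretomes. The Dsp window is chr13:38151044-38151343 on the plus strand and the Jup window is chr11:100397741-100398040 on the minus strand, both from RefSeq in GRCm38.p6, with capitals marking the same 6 motifs.
Dsp promoter: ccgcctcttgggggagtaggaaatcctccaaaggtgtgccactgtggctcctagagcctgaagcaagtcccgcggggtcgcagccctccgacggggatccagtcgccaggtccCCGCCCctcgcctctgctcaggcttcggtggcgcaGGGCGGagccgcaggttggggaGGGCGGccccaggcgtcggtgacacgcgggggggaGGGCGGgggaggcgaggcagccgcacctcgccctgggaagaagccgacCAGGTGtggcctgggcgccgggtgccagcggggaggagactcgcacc
Jup promoter: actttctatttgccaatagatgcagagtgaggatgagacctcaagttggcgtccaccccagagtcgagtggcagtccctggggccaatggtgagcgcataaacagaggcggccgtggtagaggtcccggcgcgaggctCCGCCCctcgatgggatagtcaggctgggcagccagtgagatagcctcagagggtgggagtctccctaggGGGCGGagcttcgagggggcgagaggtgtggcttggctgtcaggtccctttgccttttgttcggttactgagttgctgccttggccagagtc
Dsp held 4 GC boxes and, at position 4, CAGGTG, the reverse complement of CACCTG. Jup held 2 GC boxes and no other match among the 6 motifs. GC boxes occurred in 35.7% of all windows. Promoter windows were found for 7 of the 10 genes, and CACCTG on either strand was in 6 of these 7: Krt8, Krt18, Krt7, Dsp, Muc1 and Cldn4. Beside this, 20.2% of all windows held it, and the difference was not tested.

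**Figure D3:**
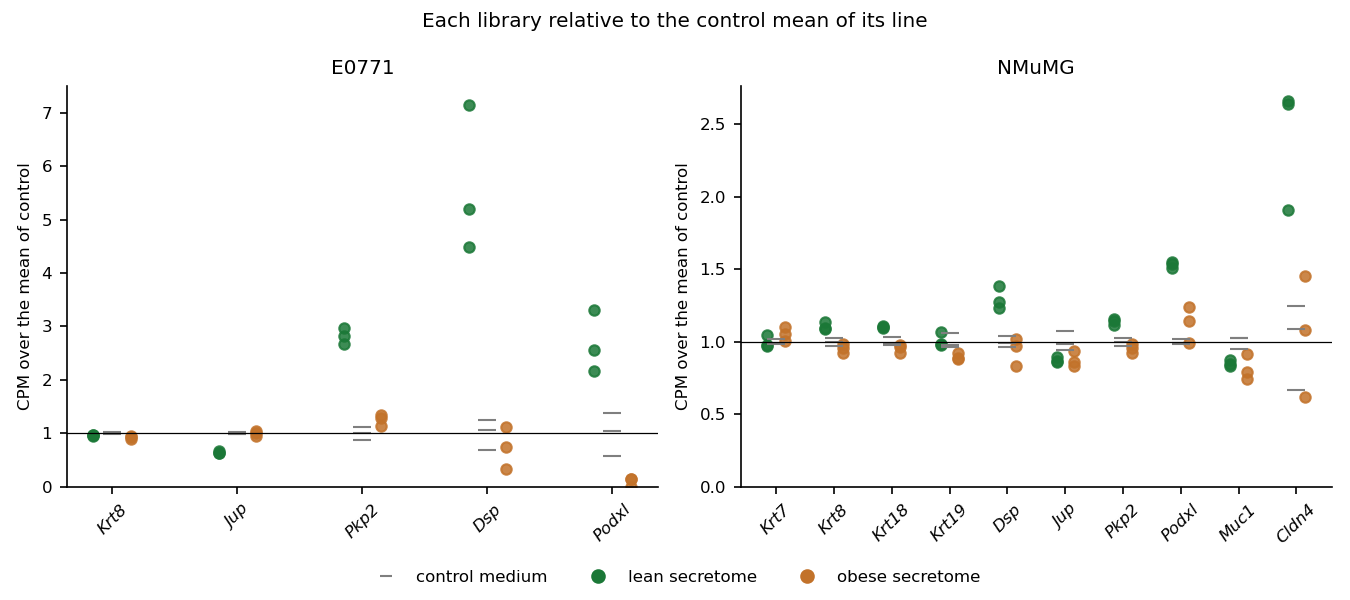
Level in CPM of each library divided by the control mean of its line, for the 5 genes tested in E0771 (left) and all 10 genes in NMuMG (right). Dots are lean and obese libraries and grey dashes are control libraries. In E0771 the lean libraries of Dsp, Pkp2 and Podxl lie far above 1 and those of Jup below it, with Dsp and Podxl at trace level there. In NMuMG the lean libraries of the same genes lie closer to 1, with Cldn4 highest. The Podxl difference between lines for lean minus control did not pass (edgeR interaction, adjusted p = 0.0961).

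Podxl, an anti-adhesive sialomucin, rose with lean secretome in NMuMG and was higher with it, at trace level, in E0771. In E0771 it had 4, 7 and 8 counts in control, 18, 23 and 17 in lean, and 1, 1 and 0 in obese libraries, so the 3 groups did not overlap. As with Dsp, only the lean libraries brought Podxl over the count filter, so its calls for lean secretome under that filter are no support. With no filter its log2 fold change was 1.42 ± 0.50 for lean minus control (edgeR, adjusted p = 0.0183) and 4.49 ± 0.74 for lean minus obese (edgeR, adjusted p = 1.55e-08). Podxl too was listed with its values in view, so these values are no independent support. With the filter, lean minus control did not pass without control replicate 1 (edgeR, adjusted p = 0.0526). The ratio of summed levels was 2.72 for lean over control (95% exact counting interval 1.596 to 4.84) and 26.5 for lean over obese (7.01 to 224).

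Obese minus control gave -3.08 ± 0.83 for Podxl in E0771 (edgeR, adjusted p = 0.0444), a call that rested on 2 counts against 19. It did not hold without control replicate 1 (edgeR, adjusted p = 0.0790), 2 (0.131) or 3 (0.0998), lean replicate 1 (0.0578) or 2 (0.0534), or obese replicate 1 (0.106), 2 (0.0736) or 3 (0.235). In DESeq2 its adjusted p was not given, and in a fit of these 2 groups alone it was under the count filter.

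In NMuMG Podxl was well measured. It stood at 82.2, 79.7 and 79.3 CPM in control, 123, 121 and 125 CPM in lean, and 99.6, 79.6 and 91.8 CPM in obese libraries. Lean libraries lay above all others with little spread, and obese libraries spread from control level upward. Podxl rose by 0.62 ± 0.06 on the log2 scale for lean minus control (edgeR, adjusted p = 5.85e-07) and 0.43 ± 0.06 for lean minus obese (edgeR, adjusted p = 3.44e-05). Obese minus control was 0.18 ± 0.06 and did not pass (edgeR, adjusted p = 0.110). It passed without obese replicate 2 (edgeR, adjusted p = 8.52e-05), with no count filter (0.000846) and in DESeq2 (adjusted p = 0.0433).

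Muc1, the transmembrane mucin of the luminal surface, fell in NMuMG with both secretomes. It stood at 95.6, 95.8 and 88.9 CPM in control, 77.7, 81.7 and 79.1 CPM in lean, and 69.5, 85.4 and 74.0 CPM in obese libraries. All secretome libraries lay below the control libraries, and lean and obese overlapped. The log2 change was -0.23 ± 0.05 for lean minus control (edgeR, adjusted p = 0.00132) and -0.28 ± 0.05 for obese minus control (edgeR, adjusted p = 0.00242). Lean minus obese was 0.05 ± 0.05 (edgeR, adjusted p = 0.551). Without obese replicate 2 it passed at 0.13 (edgeR, adjusted p = 0.0369), and without obese replicate 1 it changed sign.

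In E0771 Muc1 had 6, 2 and 1 counts in control, 8, 7 and 9 in lean, and 15, 12 and 7 in obese libraries. Both secretome groups lay above the control libraries without overlap, which is the opposite side from NMuMG. These counts were under the filter and were not tested in that line. Summed levels gave a ratio of 2.38 for lean over control (95% exact counting interval 1.07 to 5.81) and 3.68 for obese over control (1.73 to 8.73). These intervals leave out the spread between libraries and are no test. Non-overlap was seen for 61.4% of all genes tested in E0771 for lean minus control and for 21.5% for obese minus control. In some fits with 1 library left out Muc1 reached the filter, and of these lean minus control passed only without control replicate 1, at 2.10 ± 0.78 (edgeR, adjusted p = 0.0287). Obese minus control in those fits lay between 1.53 and 2.75 (edgeR, adjusted p between 0.0717 and 0.297).

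Cldn4 had the largest relative rise of the 10 genes in NMuMG, at the lowest level. It had 34, 16 and 28 counts in control, 51, 66 and 62 in lean, and 32, 24 and 15 in obese libraries. Lean libraries lay above the others, and control and obese overlapped throughout. Cldn4 rose by 1.25 ± 0.27 on the log2 scale for lean minus control (edgeR, adjusted p = 0.000283) and 1.19 ± 0.27 for lean minus obese (edgeR, adjusted p = 0.000698). In E0771 it had 3, 1 and 4 counts in lean libraries and 0 in all control and obese libraries, too few for a test. Its promoter window, chr5:134946885-134947184 on the minus strand (RefSeq, GRCm38.p6), is shown because it was the only one of the 7 with AP-1 matches.
Cldn4 promoter: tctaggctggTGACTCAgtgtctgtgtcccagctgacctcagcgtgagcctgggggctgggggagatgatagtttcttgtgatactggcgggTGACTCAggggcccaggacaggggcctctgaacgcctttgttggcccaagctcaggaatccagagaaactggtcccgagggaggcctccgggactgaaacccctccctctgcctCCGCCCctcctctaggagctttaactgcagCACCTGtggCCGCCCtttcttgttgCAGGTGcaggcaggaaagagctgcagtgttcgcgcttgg
The 2 AP-1 matches, TGACTCA, lay at positions -240 and -158. AP-1 matches were in 7.81% of all windows. The window also held 2 CACCTG matches, at -14 and, on the other strand, at 12.

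Over the list, more members were called in the lean comparisons than for obese minus control in each line, as was the case over all genes tested. In E0771, 5 of the 10 genes passed the count filter, and Dsp and Podxl passed it only through the lean libraries where they are high, so their share is no support. Of the other 3, Pkp2 was called higher and Jup lower in both lean comparisons, and Krt8 was not called. Of all 5, 4 were called for lean minus obese (3 higher, 1 lower), where 52.7% of the 13813 genes tested were called. For lean minus control 4 were called (3 higher, 1 lower), beside 56.3% of all genes. For obese minus control 1 was called, beside 2.61% of all genes.

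In NMuMG all 10 genes passed the filter. For lean minus obese 7 were called, each of them higher, where 35.0% of the 15014 genes tested were called and 17.6% were called higher. For lean minus control 8 were called (6 higher, 2 lower), beside 38.2% of all genes. For obese minus control 3 were called, each lower, beside 5.01% of all genes and 2.66% called lower. The median log2 change of the 10 genes was 0.20, 0.15 and -0.05 in these 3 comparisons, and the median over all genes tested was 0.00 to 2 decimals in each. The comparisons share control or lean libraries, and the members were chosen with results in view, so these counts describe the list and are no independent evidence.

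**Figure D4:**
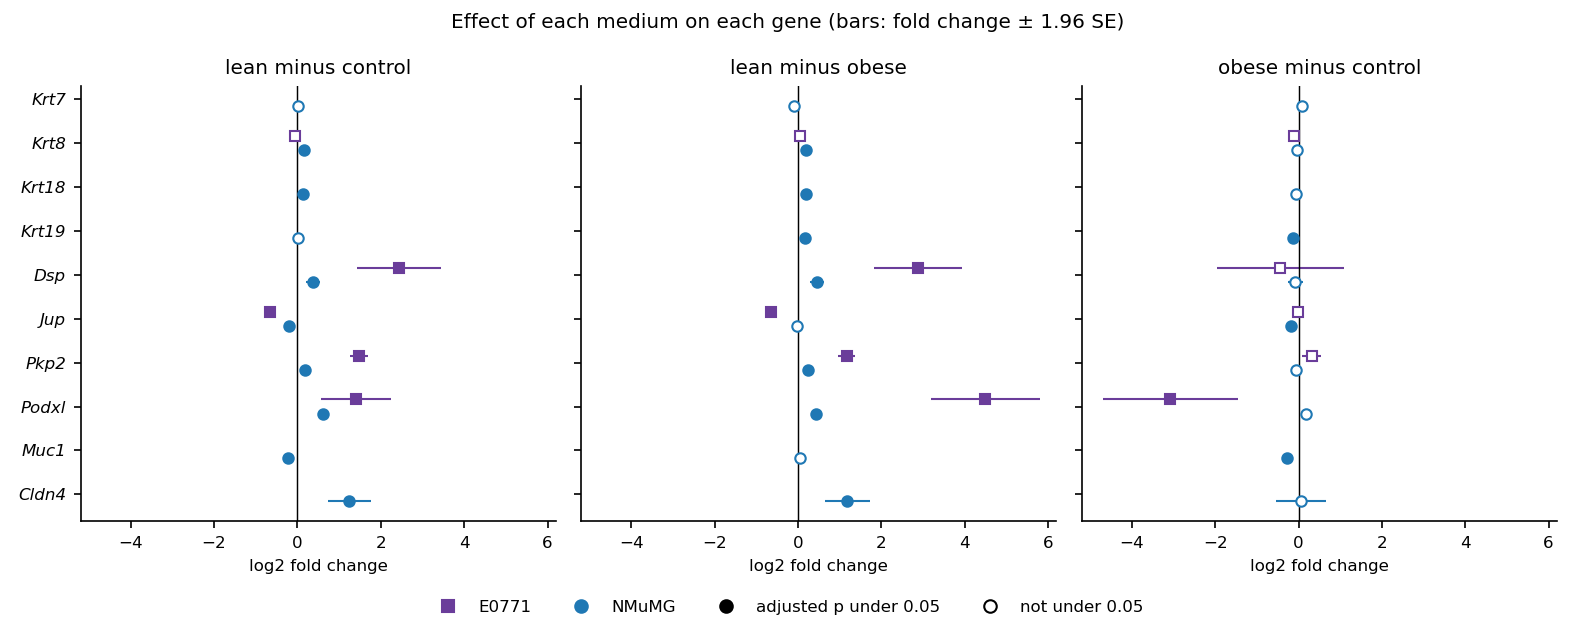
Log2 fold change of each gene in the 3 comparisons, with bars for the 95% interval from its SE, for E0771 (squares) and NMuMG (circles). Filled symbols passed at an adjusted p under 0.05, and genes under the count filter in E0771 have no square. Dsp, Pkp2 and Podxl lie to the right in both lines for lean minus control, with the E0771 squares farther out, and Jup lies to the left. In E0771, Dsp and Podxl were at trace level and reached the count filter only through the lean libraries, so their filled squares are no support. The Podxl difference between lines for lean minus control did not pass (edgeR interaction, adjusted p = 0.0961).

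The effect of lean secretome differed between the lines for some of the genes. The difference, NMuMG effect minus E0771 effect, was called for 5 of the 10 genes in each lean comparison, beside 34.2% of the 16529 genes tested for lean minus obese and 34.5% for lean minus control. The genes called were Krt8, Dsp, Jup, Pkp2 and Podxl for lean minus obese, and for lean minus control Krt8, Dsp, Jup, Pkp2 and Muc1, which was under the filter in E0771 alone. For Pkp2 it was -1.31 ± 0.10 on the log2 scale for lean minus control (edgeR interaction, adjusted p = 3.88e-13), for Dsp -2.09 ± 0.61 (adjusted p = 0.0128) and for Jup 0.43 ± 0.06 (adjusted p = 5.96e-07). The lean effect was thus more positive for Pkp2 and more negative for Jup in E0771. Dsp differed at trace level there, from 8 counts in control, 51 in lean and 6 in obese libraries. Podxl had 19, 58 and 2 counts in the same groups. Both, like Muc1, passed the filter of this fit through NMuMG, so their E0771 side rests on few counts. Krt7, Krt18, Krt19 and Cldn4 had 5 counts or fewer in any E0771 library, so a difference could hardly be measured for them. The Dsp difference did not pass without E0771 control replicate 1 (edgeR interaction, adjusted p = 0.0726). For Podxl the lean minus control difference was -0.82 ± 0.38 and did not pass (edgeR interaction, adjusted p = 0.0961). Obese minus control differed between lines for 2 members, Podxl and Muc1, beside 1.69% of all genes, and both rested on E0771 libraries with 15 counts or fewer.

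Other genes of the same structures were read from 7 lists that hold 96 genes with rows. In E0771, 41 of them passed the filter and 24 were called for lean minus control (16 higher, 8 lower), beside 56.3% of all genes tested. Krt14, Nectin4, St14 and Grhl2 reached the filter there only with the lean libraries, and of the other 37 genes 21 were called (13 higher, 8 lower). In NMuMG 62 passed and 31 were called (22 higher, 9 lower), beside 38.2% of all genes, and Krt5 reached the filter only with the lean libraries. For obese minus control 2 were called in E0771, Ctnnb1 and Lgals3, beside 2.61% of all genes, and 9 in NMuMG (3 higher, 6 lower), beside 5.01%. Those in NMuMG were Krt20, Dsg2, Cdh1, Slc9a3r2, Galnt3, Ehf, Klf4, Vim and Sparc. The counts of single lists are descriptions to be read against these shares.

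Desmosomal cadherins were scarce. Of the 6 listed, Dsg1a, Dsg2, Dsg3, Dsc1, Dsc2 and Dsc3, none exceeded 3 counts in any E0771 library, and in NMuMG only Dsg2 was abundant, with 1674 to 2842 counts. Dsg2, a desmoglein of simple epithelia, changed by -0.57 ± 0.05 on the log2 scale for lean minus control in NMuMG (edgeR, adjusted p = 4.89e-12), opposite in sign to Dsp and Pkp2. It was also called lower there for obese minus control, at 79.2 to 88.9 CPM against 94.4 to 102 CPM in control. Perp, a membrane protein of desmosomes, rose in NMuMG by 0.61 ± 0.05 for lean minus control (edgeR, adjusted p = 1.60e-12) and had 0 counts in all E0771 libraries. Of the 13 other desmosome and plakin genes, 8 were tested in NMuMG with 2 higher and 2 lower, beside 38.2% of all genes called, and 3 in E0771 with 1 higher and 1 lower, beside 56.3%. The E0771 pair was Pkp4, at 0.26 ± 0.04 (edgeR, adjusted p = 5.82e-06), and the cytoskeletal linker Plec, at -0.51 ± 0.14 (edgeR, adjusted p = 0.0182). That count fell to 1 without control replicate 1 or 2 or lean replicate 1 or 2.

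Among the 14 other keratins, lean secretome called 3 of 3 tested in E0771 (all higher, median 2.33), beside 56.3% of all genes, and 5 of 6 in NMuMG (4 higher, 1 lower, median 0.60), beside 38.2%. Without Krt14 and Krt5, which entered the tests only through lean libraries, these were 2 of 2 and 4 of 5. The NMuMG count still holds Krt6a, which reached the filter only with the secretome libraries, so its call against control is no support. Krt20, a type I keratin of gut and urinary epithelium, rose in NMuMG from 200 to 210 CPM in control to 283 to 295 CPM in lean libraries. The rise was 0.51 ± 0.04 on the log2 scale (edgeR, adjusted p = 1.09e-13). Obese libraries stood between, at 232 to 248 CPM, and Krt20 was also called higher for obese minus control. Krt80 rose by 0.26 ± 0.06 for lean minus control (edgeR, adjusted p = 0.000629). Krt5, the basal type II keratin, named after its values were seen, had 5 to 9 counts in control, 136 to 182 in lean and 6 to 23 in obese NMuMG libraries, and no test is given for it because it reached the filter only through the lean libraries. Its summed level was 26.4 times higher in lean than in control (95% exact counting interval 16.7 to 44.2, for counting error only and no test). Beside it, the basal marker list, which holds Krt5, summed to 19.1 to 19.5 CPM in control, 9.12 to 11.0 CPM in lean and 11.9 to 13.3 CPM in obese NMuMG libraries, with Krt17 at 0, and its part in the result was not tested.

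Tight and adherens junction genes are set beside the 38.2% of all genes called in NMuMG and 56.3% in E0771 for lean minus control. In NMuMG 5 of 9 tested tight junction genes were called, all higher, among them Cgn, a cytoplasmic plaque protein, at 0.47 ± 0.04 (edgeR, adjusted p = 2.17e-10) and Marveld2 (tricellulin) at 0.33 ± 0.11 (edgeR, adjusted p = 0.0219). In E0771 3 of 5 were called, with Cldn12 at 0.29 ± 0.07 (edgeR, adjusted p = 0.000755) and Tjp1 (ZO-1) at -0.25 ± 0.04 (edgeR, adjusted p = 5.10e-06). Of the adherens junction genes 4 of 11 were called in NMuMG and 6 of 9 in E0771, all higher, and the E0771 count was 5 of 8 without Nectin4. Nectin2 rose by 0.83 ± 0.08 in E0771 (edgeR, adjusted p = 2.00e-09) and by 0.26 ± 0.05 in NMuMG (edgeR, adjusted p = 0.000240), and vinculin (Vcl) by 0.23 ± 0.05 (edgeR, adjusted p = 0.000256) and 0.39 ± 0.04 (edgeR, adjusted p = 1.83e-10).

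Apical surface genes other than the members included Galnt3, which starts mucin-type O-glycosylation, and Spint2, an inhibitor of membrane serine proteases. Galnt3 rose by 0.68 ± 0.09 in E0771 (edgeR, adjusted p = 3.80e-07) and 0.43 ± 0.04 in NMuMG (edgeR, adjusted p = 5.83e-11) for lean minus control. Spint2 rose by 0.26 ± 0.08 (edgeR, adjusted p = 0.00933) and 0.55 ± 0.04 (edgeR, adjusted p = 1.85e-12). Of 17 such genes with a row, 3 of 8 tested were called in E0771, all higher, beside 56.3% of all genes, and 6 of 10 in NMuMG (4 higher, 2 lower), beside 38.2%. Galnt3 was also called in NMuMG for obese minus control.

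Epithelial transcription and splicing factors went in both directions. In NMuMG 4 of 8 tested were called for lean minus control, 2 higher and 2 lower, beside 38.2% of all genes, with Ehf at -1.17 ± 0.07 (edgeR, adjusted p = 9.20e-16) and Foxa1 at -0.49 ± 0.09 (edgeR, adjusted p = 4.42e-05). That count was 2 without control replicate 3 or lean replicate 1. Ehf was also called lower in NMuMG for obese minus control. In E0771 2 of 6 were called, beside 56.3% of all genes: Klf4 at -0.68 ± 0.10 (edgeR, adjusted p = 2.55e-06) and Grhl2. Grhl2, named after its values were seen, had 0 to 7 counts in control, 12 to 36 in lean and 4 to 5 in obese libraries, and its call is no support because only the lean libraries brought it over the filter.

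Of 7 mesenchymal counterpart genes tested in E0771, 5 were called for lean minus control, all lower, beside 56.3% of all genes, with a median of -0.40 over the 7. Vim, Snai1, Twist1, Col1a1 and Sparc passed, and Zeb1 and Zeb2 did not. Col1a1 changed by -1.75 ± 0.15 (edgeR, adjusted p = 6.27e-05) and Vim by -0.59 ± 0.04 (edgeR, adjusted p = 5.59e-12). In NMuMG 3 of 10 were called (1 higher, 2 lower), beside 38.2% of all genes, including Fn1 at -0.69 ± 0.08 (edgeR, adjusted p = 0.000494) and Cdh2 at 0.09 ± 0.03 (edgeR, adjusted p = 0.0361). The part of these genes in the results for the members was not tested.

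**Figure D5:**
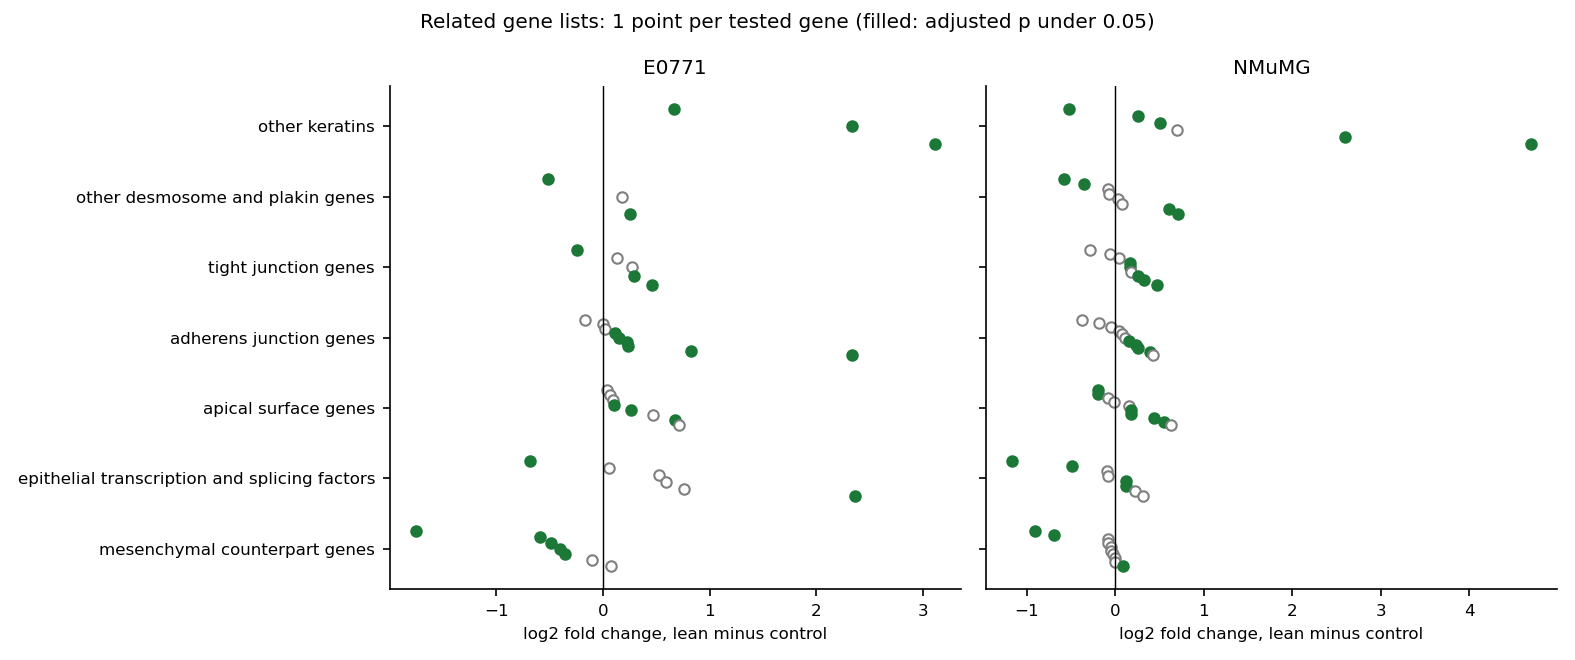
Log2 fold change for lean minus control of each tested gene in 7 related lists, in E0771 (left) and NMuMG (right). Each point is a gene, and filled points passed at an adjusted p under 0.05. Adherens junction genes that passed lie to the right of 0 in both lines, and mesenchymal genes that passed in E0771 lie to the left.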

How the data were processed

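Poly(A) RNA was sequenced from 18 mouse libraries, 3 for each of 6 groups. Per the submitters' processing notes, the authors used cutadapt 1.16, STAR 2.7.9a and featureCounts 1.6.3 with the build GRCm39. The annotation release and strand setting are not given in the sources used here. The authors deposited raw read counts per Ensembl gene. Symbols were found in GENCODE M21 (GRCm38) for 52073 of 56980 identifiers, which held 99.68% of counts.

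Genes under edgeR's default expression filter were left out. Counts were scaled by TMM and tested by edgeR 4.0.16 (quasi-likelihood, R 4.3.3), with the 9 libraries and 3 media of a line in 1 fit and all 18 libraries in the fit for differences between lines. P-values were adjusted over all genes tested by Benjamini and Hochberg, and called under 0.05. Errors after log2 fold changes are standard errors, taken for edgeR from the fold change and the F statistic of its test. The biological coefficient of variation was 0.0468 in E0771 and 0.0388 in NMuMG. The tests were tried on simulated counts. Levels per kb used the principal transcript.

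The 10 genes and the related lists were chosen with earlier results of these data known. From each related list, up to 2 genes per line are named, those with the largest change for lean minus control among called genes whose libraries did not overlap and whose mean log2 CPM was 2 or more. Alternatives were DESeq2 1.42.0, other size factors, no filter, only the groups compared, a replicate block, a fold threshold and each library left out. The 12 human libraries were not used.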

Additional observations from a re-analysis of the deposited data

Results flagged for a closer look

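These are the values for which the effect of a medium differed between the lines by a test of the difference itself, NMuMG effect minus E0771 effect on the log2 scale, in edgeR over all 18 libraries. A positive value means a higher or less negative effect in NMuMG.

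For lean minus control, the difference was 0.19 for Krt8 (adjusted p = 0.000964), -2.09 for Dsp (adjusted p = 0.0128), 0.43 for Jup (adjusted p = 5.96e-07) and -1.31 for Pkp2 (adjusted p = 3.88e-13). Muc1 gave -1.46 (adjusted p = 0.0349), from 9 counts in E0771 control and 24 in lean libraries. It did not pass without E0771 control replicate 2 (0.125) or 3 (0.136), or lean replicate 1 (0.0711) or 3 (0.0846). Dsp rested on 8 counts in E0771 control and 51 in lean libraries, and it did not pass without E0771 control replicate 1 (0.0726).

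For lean minus obese, the difference was 0.13 for Krt8 (adjusted p = 0.0223), -2.44 for Dsp (adjusted p = 0.00739), 0.61 for Jup (adjusted p = 4.26e-10), -0.94 for Pkp2 (adjusted p = 6.33e-10) and -4.06 for Podxl (adjusted p = 2.39e-06). Krt8 did not pass without E0771 lean replicate 2 (0.0570), obese replicate 1 (0.0832) or 3 (0.0502), or NMuMG obese replicate 2 (0.101). In E0771, Dsp rested on 51 counts in lean and 6 in obese libraries, and Podxl on 58 and 2.

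For obese minus control, the difference was 3.24 for Podxl (adjusted p = 0.0233) and -2.12 for Muc1 (adjusted p = 0.0174). Podxl did not pass without E0771 control replicate 2 (0.0690) or 3 (0.0759), or obese replicate 1, 2 (0.0508) or 3 (0.137). Muc1 did not pass without E0771 control replicate 2 (0.0880) or 3 (0.0620), or obese replicate 1 (0.0962) or 2 (0.0544). Both genes were at 15 counts or fewer in each of these E0771 libraries.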

How the results depend on the processing

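In E0771 the count of members called for each lean comparison was 4 under the alternatives, except 3 with a log2 fold change of at least 1. Without control replicate 1 the 4 for lean minus control lacked Podxl (edgeR, adjusted p = 0.0526) and held Muc1 (0.0287). For obese minus control the 1 called member became 0 with the replicate block, in fits of only the groups compared and in DESeq2, and 0 to 2 with 1 library left out. With the fold threshold the NMuMG counts were 1 of 7 for lean minus obese, 1 of 8 for lean minus control and 0 of 3 for obese minus control. With 1 library left out they were 7 to 8, 8, and 1 to 4, and obese minus control gave 4 with the replicate block, with no filter and in DESeq2. The 5 members whose effect differed between lines became 2 for lean minus obese and 3 for lean minus control under the fold threshold, and the 2 for obese minus control became 0 to 2 with 1 library left out and 3 in DESeq2.

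Signs turned only for values that were not called. Jup in E0771 for obese minus control was 0.00204 with DESeq2 size factors, 0.00161 with no filter and 0.00202 in DESeq2, and -0.0185 to 0.0311 with 1 library left out. With 1 library left out, NMuMG gave -0.0450 to 0.0331 for Jup and -0.00922 to 0.131 for Muc1 (lean minus obese), -0.0331 to 0.0217 for Krt7 and -0.0228 to 0.0604 for Krt19 (lean minus control), and -0.140 to 0.00924 for Dsp and -0.252 to 0.341 for Cldn4 (obese minus control). The difference between lines for Dsp, obese minus control, gave -0.000205 to 0.761. The causes were not tested.

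Same-numbered libraries did not deviate together (r from -0.0942 to 0.110 in E0771 and -0.0285 to 0.0250 in NMuMG), so the numbers are not taken as pairs. The replicate block moved Podxl for obese minus control to an adjusted p of 0.0552 in E0771 and 0.0225 in NMuMG (edgeR). Counts of at most 23 per library limit Krt7, Krt18, Krt19, Dsp, Podxl, Muc1 and Cldn4 in E0771.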

Other observations

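Krt6a, a type II keratin of stratified epithelium under stress, is named here after its values were seen. In NMuMG it had 4 to 7 counts in control, 25 to 46 in lean and 12 to 14 in obese libraries, so obese libraries also lay above control. Its log2 change was 2.59 ± 0.39 for lean minus control (edgeR, adjusted p = 1.98e-06) and 1.23 ± 0.34 for lean minus obese (edgeR, adjusted p = 0.00418). Only the secretome libraries brought it over the filter, so the call against control is no support. Nectin4, an adherens junction protein chosen in the same way, had 1 to 5 counts in control, 16 to 24 in lean and 1 to 3 in obese E0771 libraries, and 8 to 17, 16 to 21 and 7 to 15 counts in the same groups of NMuMG. No test is given for it in E0771, where only the lean libraries brought it over the filter.

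Krt5 had 0 counts in all E0771 control and obese libraries and 3 to 8 counts in lean libraries, the medium in which it was also highest in NMuMG. Along the axis from the control mean to the lean mean over all genes tested, obese replicates 1, 2 and 3 stood at 25.4%, 10.9% and 17.8% in E0771 and at 39.3%, 15.7% and 22.0% in NMuMG, so obese replicate 1 stood highest in both lines.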
